A study of Mus musculus with 32 samples.

Results

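Interscapular brown adipose tissue (iBAT) lies against the muscles of the back and shoulder, and its RNA was sequenced here in 32 libraries from C57BL/6J mice. The libraries fell into a set that carried many transcripts of Acta1, the skeletal muscle alpha-actin, and a set that carried almost none. The sets were chosen by a measured value, the Acta1 level, and are not groups of the study. A library was called muscle-rich where Acta1 reached at least 100 CPM (counts scaled to a column sum of 1000000), and muscle-poor where Acta1 was under 10 CPM. Of the 32 libraries, 16 were muscle-rich, 12 were muscle-poor and 4 lay between the limits and were left out of the comparison. All mice were male, 10 weeks old, non-fasted, fed chow and housed at 22 °C with 12 h of light and 12 h of dark. They were wild type and untreated. Tissue was taken every 3 h, at Zeitgeber time (ZT) 0 to 21 with lights on at ZT0, from 4 mice at each time point.

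Skeletal muscle fibres contract when calcium, released from the sarcoplasmic reticulum through the ryanodine receptor, binds troponin on the actin thin filament and lets myosin heads of the thick filament pull on it. The Z-disc anchors the thin filaments, titin links it to the thick filament, and creatine kinase buffers the ATP that myosin and the calcium pump consume. Fast and slow fibres use different genes for myosin, troponin and the calcium store. Brown adipocytes arise from a precursor shared with skeletal muscle, are packed with mitochondria and make heat through Ucp1, the uncoupling protein of the inner mitochondrial membrane. Transcription of muscle genes is driven by the MyoD family, which binds E-boxes, together with the MEF2, SRF and TEAD factors, which bind MEF2, CArG and M-CAT motifs.

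The promoters of Acta1, which set the classes, of Ckm, the muscle creatine kinase, and of Myh4, the heavy chain of the fastest fibres, are shown as examples of muscle genes. Each is the 250 bases upstream of the RefSeq transcript start in GRCm38.p6, written 5′ to 3′ in the direction of transcription. Capitals mark E-boxes (CAGCTG), M-CAT motifs (CATTCC), MEF2 motifs and CArG boxes, searched on both strands.
Acta1 (chr8:123894776-123895025, minus strand): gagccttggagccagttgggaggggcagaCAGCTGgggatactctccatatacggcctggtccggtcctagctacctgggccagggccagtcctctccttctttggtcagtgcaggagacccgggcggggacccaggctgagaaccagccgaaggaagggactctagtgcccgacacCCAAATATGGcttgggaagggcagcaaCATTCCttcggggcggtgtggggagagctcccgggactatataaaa
Ckm (chr7:19410844-19411093, plus strand): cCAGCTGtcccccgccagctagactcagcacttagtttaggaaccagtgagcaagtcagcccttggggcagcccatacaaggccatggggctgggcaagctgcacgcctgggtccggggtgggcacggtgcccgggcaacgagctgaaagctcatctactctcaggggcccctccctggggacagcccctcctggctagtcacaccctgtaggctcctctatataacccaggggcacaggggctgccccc
Myh4 (chr11:67237562-67237811, plus strand): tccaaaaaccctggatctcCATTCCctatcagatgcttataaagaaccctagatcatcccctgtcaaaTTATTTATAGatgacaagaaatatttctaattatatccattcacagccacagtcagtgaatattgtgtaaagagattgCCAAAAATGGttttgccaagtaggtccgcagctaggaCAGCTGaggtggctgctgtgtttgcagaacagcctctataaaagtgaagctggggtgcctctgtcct
The Acta1 window held an E-box, a CArG box and an M-CAT motif, the Ckm window held an E-box only, and the Myh4 window held all 4 kinds. RefSeq promoters were found for 79 of 111 muscle genes looked up (Acta1 and 110 listed genes), with 103 starts among them. An E-box CAGCTG was present in 36.9% of these 103 windows and in 13.0% of all 32851 windows of the same length. The shares were 15.5% and 12.6% for M-CAT, 15.5% and 2.92% for MEF2, and 7.77% and 1.47% for CArG. These matches describe letters in the windows, and no binding was measured.

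In the 16 muscle-rich libraries Acta1 ranged from 125 to 1438 CPM with a median of 474 CPM. In the 12 muscle-poor libraries it ranged from 0.175 to 4.25 CPM with a median of 1.11 CPM. The libraries just inside and outside the upper limit were ZT15 replicate 4 at 125 CPM and ZT0 replicate 2 at 53.1 CPM. Those at the lower limit were ZT9 replicate 3 at 4.25 CPM and ZT3 replicate 1 at 14.9 CPM. Because these values chose the classes, they are given without a test. Acta1 lies on chromosome 8 at 123891769-123894751 of GRCm38, and each 100-base stretch of its transcripts occurred in the transcripts of no other annotated gene.

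The muscle-rich libraries came from all 8 time points. At ZT15 all 4 libraries were muscle-rich, while at ZT6 1 was muscle-rich and 3 were muscle-poor. Each time point was sequenced within a single lane. By lane, 4 libraries were muscle-rich and 6 muscle-poor in lane 2, 8 and 3 in lane 3, and 4 and 3 in lane 4. Total counts were 16300770 to 18254659 over the 32 libraries. They averaged 17372283 ± 472435 (SD, n = 16) in muscle-rich and 17465240 ± 464115 (SD, n = 12) in muscle-poor libraries (two-sided permutation test, p = 0.609). The mitochondrially encoded share of counts was 23.2% ± 1.88 and 23.4% ± 3.02 (SD, same n; two-sided permutation test, p = 0.825). Brown fat markers were present in every library, with Ucp1 between 961 and 4213 CPM.

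**Figure D1:**
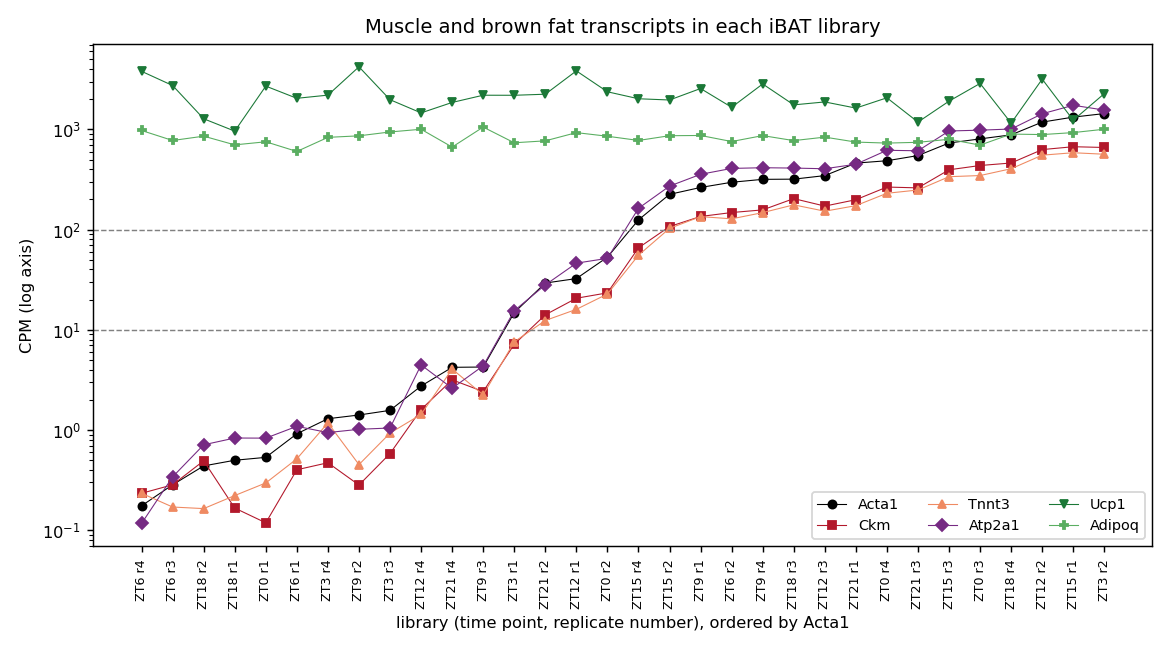
CPM (log axis) of 4 muscle transcripts (Acta1, Ckm, Tnnt3, Atp2a1) and 2 brown fat transcripts (Ucp1, Adipoq) in all 32 libraries, ordered by Acta1, with dashed lines at the class limits of 10 and 100 CPM. Along this order the 4 muscle transcripts climb from under 1 CPM to highest values of 1438 (Acta1), 672 (Ckm), 585 (Tnnt3) and 1741 CPM (Atp2a1), while Adipoq stays between 602 and 1054 CPM.

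To ask which other genes differed between the classes, the counts were compared gene by gene with time of day as a cosine and a sine term (edgeR quasi-likelihood test, Benjamini-Hochberg adjusted p under 0.05). Acta1 was removed first. Of 15504 genes tested, 405 were called (2.61%), of which 401 were higher (2.59%) and 4 lower (0.0258%) in muscle-rich libraries. At least a 2-fold difference was reached by 308 of the higher genes and by 0 of the lower genes. The median log2 fold change over all genes tested was -0.01. For 192 genes (1.24%) every muscle-rich library was above every muscle-poor one. Within lane 2 alone 347 genes were called, and within lane 4 alone 543 were called, 377 higher and 166 lower. Within lane 3 alone edgeR called 0 genes, with 741 at an unadjusted p under 0.05. DESeq2 was not run within lanes.

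The genes were then read through 7 lists of skeletal muscle genes that hold 110 genes besides Acta1. Of the 103 tested, 97 were higher in muscle-rich libraries and 0 were lower, and 75 did not overlap between the classes. Over all genes tested, 2.59% were higher and 1.24% lay with every muscle-rich library above every muscle-poor one. These shares also stand beside the counts of each muscle and fibre list below. Their median log2 fold change was 5.48, and it was 5.88 in lane 2, 4.67 in lane 3 and 5.43 in lane 4. Because these genes are expressed in the same fibres as the gene that chose the classes, their differences are given as descriptions with fold changes and no p. Where a call of such a gene is named, it is not taken as a test. In bulk tissue, fewer muscle fibres and less muscle RNA per fibre cannot be told apart.

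All 12 thin filament genes tested were higher, with a median log2 fold change of 5.93, and 9 did not overlap between classes. Tnnt3, the fast troponin T that ties troponin to tropomyosin, ranged from 55.5 to 585 CPM (median 204) in muscle-rich and up to 4.06 CPM (median 0.484) in muscle-poor libraries. Its log2 fold change was 8.03 ± 0.50 (SE). Tnni2, the fast inhibitory troponin, ranged from 23.2 to 247 CPM (median 88.0) and stayed at or below 1.06 CPM in muscle-poor libraries. Neb, which encodes the thin filament ruler nebulin, ranged from 29.9 to 465 CPM against 2.00 CPM at most. Tpm2, a tropomyosin, was the exception in level. It lay at a median of 10.4 CPM in muscle-poor libraries, and its 172 CPM in muscle-rich libraries made a log2 fold change of 4.32.

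All 16 thick filament genes tested were higher, with a median log2 fold change of 7.41. Myh4 ranged from 197 to 2238 CPM (median 714) in muscle-rich and up to 8.15 CPM (median 0.834) in muscle-poor libraries, a log2 fold change of 8.83. Mybpc1 and Mybpc2, the slow and fast myosin-binding proteins C, reached 17.7 to 255 CPM and 15.2 to 175 CPM, against at most 0.572 and 2.83 CPM. Myom2, the M-band protein myomesin 2, had 10 reads over the 12 muscle-poor libraries together and a median of 29.8 CPM in muscle-rich ones. Myl1 and Myom3 behaved differently from these. Myl1, a fast essential light chain, was at 47.7 to 70.1 CPM in muscle-poor libraries and rose by only 1.65 on the log2 scale. Myom3 overlapped between the classes with a log2 fold change of 0.94.

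All 19 Z-disc and titin genes were higher, and 18 of them did not overlap between classes (median log2 fold change 6.39). Ttn, which encodes the spring protein titin, ranged from 71.5 to 1128 CPM (median 302) against at most 1.95 CPM. Myot, the Z-disc protein myotilin, had 3 reads in all 12 muscle-poor libraries and 8770 in the 16 muscle-rich ones. The ratio of its pooled levels was 2204 with a 95% exact counting interval of 754 to 10691. Its log2 fold change was 10.4, and 11.2 without ZT21 replicate 4, which held 2 of the 3 muscle-poor reads. Actn3, the fast alpha-actinin, ranged from 25.6 to 304 CPM against at most 1.28 CPM. Des, which encodes the intermediate filament desmin found in all muscle kinds, was again at a measurable level in both classes, with a median of 40.5 CPM in muscle-poor and 102 CPM in muscle-rich libraries.

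All 17 calcium-handling genes tested were higher (median log2 fold change 6.32). Atp2a1, the fast calcium pump SERCA1, ranged from 163 to 1741 CPM (median 531) in muscle-rich and from 0.117 to 4.46 CPM (median 0.980) in muscle-poor libraries. Ryr1, the calcium release channel, and Cacna1s, its voltage sensor, had log2 fold changes of 8.89 and 8.86. Pvalb, the calcium buffer parvalbumin of fast fibres, ranged from 33.7 to 377 CPM against at most 2.33 CPM. Sln, the pump inhibitor sarcolipin, was not tested because of low counts. It had no read in any muscle-poor library and up to 83 reads in a muscle-rich one, so its pooled level was at least 30.7-fold higher, taking 3 reads over the muscle-poor class as the floor. That library was ZT15 replicate 1, and without it the bound was 10.5-fold. In 6 of the 16 muscle-rich libraries Sln had no read. Casq2, the slow calsequestrin, moved least with a log2 fold change of 0.71 ± 0.19 (SE), and it was no longer called in 14 of the 28 fits that left out 1 library.

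**Figure D2:**
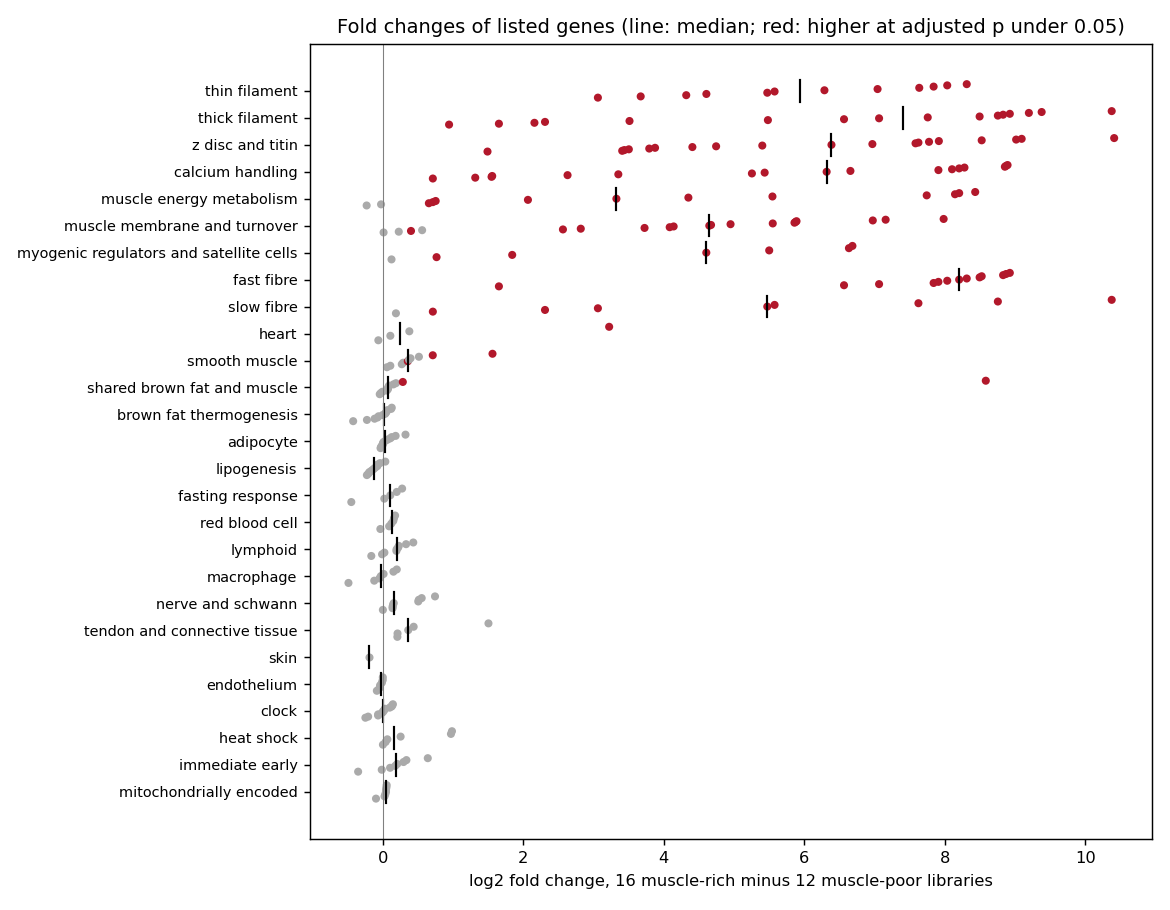
Log2 fold change (muscle-rich minus muscle-poor) of each tested gene in 27 lists, 1 point a gene, with the median of each list as a line and called genes in red. The 7 muscle lists and both fibre lists reach far to the right, and the brown fat, adipocyte, blood and endothelial lists sit at 0.

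Of 13 energy metabolism genes tested, 11 were higher (median log2 fold change 3.32). Ckm ranged from 65.8 to 672 CPM (median 232) in muscle-rich and from 0.119 to 3.17 CPM (median 0.436) in muscle-poor libraries. Pgam2, the muscle phosphoglycerate mutase, and Ampd1, the muscle AMP deaminase, had log2 fold changes of 7.74 and 8.20. Pygm, the muscle glycogen phosphorylase, was at 7.42 CPM and Eno3, the muscle enolase, at 9.58 CPM in the median muscle-poor library, and their log2 fold changes were 4.35 and 3.32. Pfkm, the muscle phosphofructokinase, was at a median of 95.9 CPM in muscle-poor libraries and had a log2 fold change of 0.71. Mb, which encodes myoglobin, ranged from 13.3 to 218 CPM against 0.593 to 4.84 CPM. Fbp2 and Gpd1 were not called, with log2 fold changes of -0.23 ± 0.22 and -0.03 ± 0.12 (SE).

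Of 19 membrane and protein turnover genes tested, 16 were higher (median log2 fold change 4.65). Scn4a, the muscle sodium channel, and Clcn1, the muscle chloride channel, had log2 fold changes of 5.89 and 4.95. The acetylcholine receptor genes Chrna1 and Chrne, which mark the nerve-muscle junction, had medians of 0.456 and 0.402 CPM in muscle-rich libraries. Trim63, the ubiquitin ligase MuRF1, had 3 reads over the muscle-poor class and a median of 4.79 CPM in muscle-rich libraries. Its partner in muscle wasting, Fbxo32, was not called, with medians of 17.7 CPM in muscle-poor and 22.7 CPM in muscle-rich libraries. Dysf and Chrnb1 were not called either, and Dysf had the same median level in both classes, 52.5 and 52.6 CPM.

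The myogenic regulators were found at low levels and in the muscle-rich libraries. Myf6, the MRF4 factor of mature fibres, had 506 reads in muscle-rich and 2 in muscle-poor libraries. Myod1 had 191 and 3 reads, and Cdh15, the M-cadherin of satellite cells, 126 and 1. Myog, Myf5 and Pax3 had no read in any muscle-poor library, and their pooled levels in muscle-rich libraries were at least 25.9-fold, 7.54-fold and 1.51-fold higher by the same floor. Of the 103 Myog reads 51 came from ZT15 replicate 1, and without it the bound for Myog was 13.9-fold. Pax7, which marks satellite cells, had 35 and 2 reads, a pooled ratio of 13.2 with a counting interval of 3.39 to 113. Counting intervals and floors cover counting error only.

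To set levels side by side, CPM was divided by exonic length. In the median muscle-rich library Acta1 reached 308 CPM per exonic kb, Atp2a1 153, Tnnc2, the fast troponin C, 139, Tnnt3 129, Myh4 119 and Pvalb 117. The 66 genes of the filament, Z-disc and calcium lists summed to 1197 to 12601 CPM in muscle-rich, 300 to 559 CPM in the 4 intermediate and 175 to 247 CPM in muscle-poor libraries.

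Within the muscle-rich class, the ratio to Acta1 (highest over lowest library) spread by 1.40-fold to 1.78-fold for 10 of 13 fast-fibre genes. The other three were Myl1, which muscle-poor libraries also carried, at 2.58-fold, Myh2 at 4.37-fold and Myh1 at 13.2-fold, the last with ratios of 0.0426 to 0.563. The ratio of Ckm to Acta1 ranged from 0.431 to 0.639 over the 16 libraries, a spread of 1.48-fold, while Acta1 itself spanned 125 to 1438 CPM. The corresponding spread was 1.41-fold for Atp2a1, 1.44-fold for Myh4 and 1.47-fold for Tnnt3. Among the slow-fibre genes the spread was 85.2-fold for Myh7, the heavy chain of slow fibres, and 58.9-fold for Tnni1, the slow inhibitory troponin. The lowest muscle-rich library had 3 Tnni1 reads, at 0.173 CPM, under the highest muscle-poor value of 0.344 CPM, so that end has little precision. Myl2, the slow regulatory light chain, spread by 256-fold, from 1 read in the lowest library, so its lower end has little precision. Tnnc1, Tnnt1 and Myoz2 spread by 21.0-fold, 15.8-fold and 9.93-fold. The lowest Myoz2 library had 6 reads. The lowest Tnnc1 library, with 8 reads and 0.463 CPM, lay under the muscle-poor median of 0.814 CPM, so nothing is read from the Tnnc1 spread. Nothing is read from the spread of the other three, Myl3, Casq2 and Atp2a2 (8.67-fold to 10.4-fold), which muscle-poor libraries also carried at medians of 1.18, 2.20 and 237 CPM. A gene whose level does not move with Acta1 spreads about as widely in this ratio, as the fatty acid transporter Cd36 did at 11.1-fold. Mybpc1, the slow myosin-binding protein C, was not in the slow-fibre list, and its ratio spread by 1.61-fold.

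**Figure D3:**
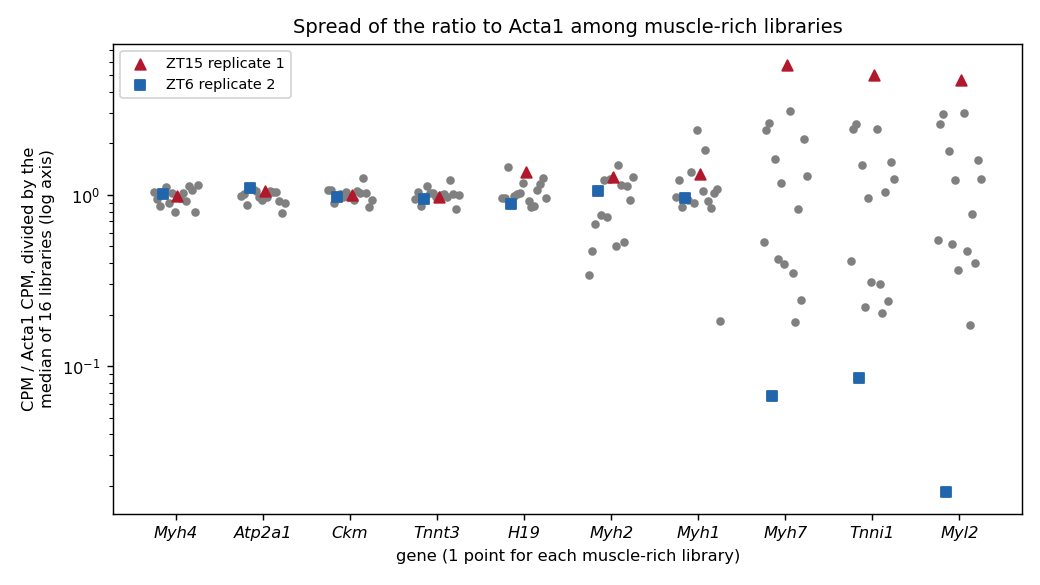
Ratio of CPM to Acta1 CPM for 10 genes in the 16 muscle-rich libraries, each divided by its median over these libraries (log axis), with ZT15 replicate 1 as red triangles and ZT6 replicate 2 as blue squares. Myh4, Atp2a1, Ckm and Tnnt3 on the left stay close to 1, the fast genes Myh2 and Myh1 spread by 4.37-fold and 13.2-fold, and the slow genes on the right scatter more, with ZT15 replicate 1 highest and ZT6 replicate 2 lowest for Myh7, Tnni1 and Myl2.

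The myosin heavy chains gave the make-up of the muscle signal. Taken per exonic kb, Myh4 made 67.2 to 90.6% (median 82.2%) of 6 skeletal heavy chains, and it led in all 16 muscle-rich libraries. Myh1, the heavy chain of type IIx fibres, made 1.86 to 26.3% (median 10.6%), and Myh2, of type IIa fibres, 1.59 to 6.16% (median 4.90%). Myh7 made 0.105 to 8.08% (median 1.53%). The developmental chains Myh3 and Myh8 stayed at or below 0.140 and 0.102%. ZT12 replicate 3 held the highest Myh1 share and the lowest Myh4 share, and ZT21 replicate 3 the reverse. Of the 100-base stretches of each transcript set, 90.8% for Myh1, 92.2% for Myh2, 96.1% for Myh4 and 92.3% for Myh7 were found in no other annotated gene. A small part of the counts may thus have been lost or shared with other genes.

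**Figure D4:**
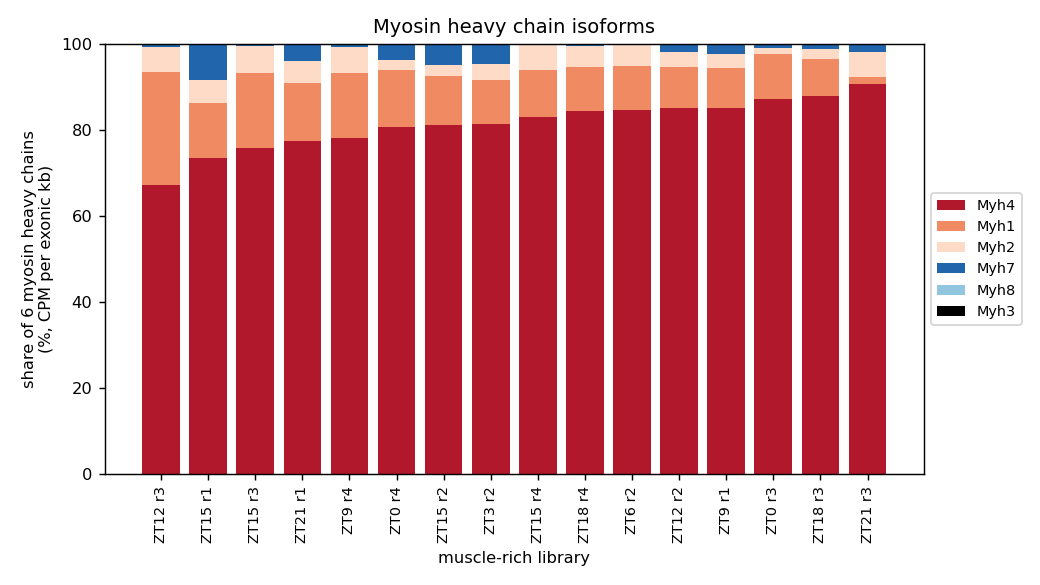
Share of 6 myosin heavy chain genes in each muscle-rich library (%, from CPM per exonic kb), ordered by the Myh4 share. Myh4 fills most of every bar, and Myh7 is largest in ZT15 replicate 1 at 8.08%.

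The slow share was highest in the same library for 4 gene pairs or sets. In ZT15 replicate 1 the slow member made 7.41% of Tnnt1 plus Tnnt3, 7.47% of Tnni1 plus Tnni2 and 10.4% of Tnnc1 plus Tnnc2 per exonic kb, besides the 8.08% of Myh7. In ZT6 replicate 2 the shares were lowest, at 0.516, 0.123 and 0.555% for the troponins and 0.105% for Myh7. They rested there on 3 reads of Tnni1, 8 of Tnnc1 and 16 of Myh7, so their precision is low. Both libraries were muscle-rich, with Acta1 at 1327 and 297 CPM. In all, 13 of 13 fast-fibre genes tested were called higher (median log2 fold change 8.20), as were 8 of 9 slow-fibre genes (median 5.47), of which 2 did not overlap between the classes. Without ZT3 replicate 2, Tnnt1, the slow troponin T that sat at this median, was at 4.70, and Myl3, a slow light chain, was no longer called. The slow gene not called was Atp2a2, the pump SERCA2, at medians of 237 CPM in muscle-poor and 269 CPM in muscle-rich libraries.

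Outside the muscle lists 304 genes were higher. The 10 with the highest log2 fold changes were Ppp1r3a at 8.78, Apobec2 at 8.62, Ckmt2 at 8.58, Art1 at 8.52, Ano5 at 8.39, Klhl31 at 8.28, Mylk4 at 8.23, Trim54 at 8.18, Lrrc38 at 8.15 and Nctc1 at 7.98. Their order depended on single muscle-poor libraries, since Ano5 was at 10.0 without ZT12 replicate 4, and Ppp1r3a, Mylk4 and Nctc1 were at 9.37, 8.83 and 8.69 without ZT9 replicate 3. Lrrc38 had no read in any muscle-poor library, and its pooled level was at least 149.8-fold higher by the floor of 3 reads. Several have known muscle roles. Ppp1r3a targets protein phosphatase 1 to glycogen and the sarcoplasmic reticulum, Ano5 is a membrane protein mutated in a limb-girdle dystrophy, and Trim54 is a MuRF ubiquitin ligase. Nctc1 is a non-coding RNA of the Igf2 and H19 region. Ckmt2, the sarcomeric mitochondrial creatine kinase, ranged from 5.14 to 65.2 CPM (median 20.3) in muscle-rich libraries. In the 12 muscle-poor libraries it had 13 reads in all and at most 0.236 CPM, and 6 of them had none.

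Ckmt2 belonged to a list of 12 genes used by both brown fat and muscle, and it had the highest log2 fold change in it. Of the 12, Ckmt2 and Slc25a4, the adenine nucleotide carrier, were called, against 2.61% of all genes tested. The log2 fold change of Slc25a4 was 0.28 ± 0.06 (SE, edgeR adjusted p = 0.0027). Cox8b and Cox7a1, the heart and muscle forms of cytochrome oxidase subunits that brown fat also uses, had log2 fold changes of -0.01 ± 0.07 and -0.04 ± 0.07 (SE). Cox8b ranged from 532 to 789 CPM in muscle-rich and from 598 to 895 CPM in muscle-poor libraries. Lpl, lipoprotein lipase, was at a median of 3994 and 3242 CPM, with a log2 fold change of 0.09 ± 0.09 (SE). Ckb, the brain creatine kinase, was at 20.6 and 19.4 CPM.

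The 4 lower genes differed little. Their number was 2 without ZT18 replicate 1 or ZT3 replicate 2 and 8 without ZT21 replicate 1, ZT3 replicate 3 or ZT9 replicate 3. They were Gmip at -0.30 ± 0.08 (SE, adjusted p = 0.024), 2700062C07Rik at -0.22 ± 0.06 (0.023), Gm10736 at -0.22 ± 0.05 (0.0077) and Mtfmt, the mitochondrial methionyl-tRNA formyltransferase, at -0.21 ± 0.05 (0.025; all edgeR). The ranges of Gmip overlapped, at 7.93 to 14.1 CPM in muscle-rich and 11.1 to 19.1 CPM in muscle-poor libraries. The other 6 genes named by rule at the low end were higher, from Nptn at 0.16 and Hif1an at 0.17 to C2cd2 and Syngr2 at 0.21 and Ybx3 and Naca at 0.23. Naca has a muscle-specific long isoform, which gene counts do not separate. Of these 10 small differences, each except Gm10736 lost its call in at least 2 of the 28 fits that left out 1 library.

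Brown fat and adipocyte genes were not called. None of the 34 genes of the thermogenesis, adipocyte and lipogenesis lists passed the test by edgeR or DESeq2, against 2.61% of all genes tested by edgeR. A called count of 0 is near that share, so nothing is read from it. An unadjusted p under 0.05 was reached by 0 of the 34 and by 1036 of all 15504 genes. The median log2 fold change of the 34 was -0.01. Ucp1 ranged from 1155 to 3173 CPM (median 1939) in muscle-rich and from 961 to 4213 CPM (median 2118) in muscle-poor libraries, with a log2 fold change of 0.06 ± 0.17 (SE). Cidea, Adipoq and Plin1 had log2 fold changes of -0.06 ± 0.05, -0.01 ± 0.06 and 0.07 ± 0.05 (SE). Fasn, the fatty acid synthase, and Acly, which supplies its acetyl-CoA, had wide ranges in both classes and log2 fold changes of -0.08 ± 0.27 and -0.16 ± 0.30 (SE). Within lane 4 alone, which holds ZT18 and ZT21 with 4 muscle-rich and 3 muscle-poor libraries, 10 of the 34 genes were called, against 3.5% of all genes tested in that lane. There 8 were lower, against 1.07% of all genes, among them Acly at -0.74 ± 0.09 and Fasn at -0.50 ± 0.06, and 2 were higher, against 2.43% of all genes, Cebpa and Ebf2 at 0.55 ± 0.11 and 0.55 ± 0.12 (SE). ZT18 replicates 1 and 2 made 2 of those 3 muscle-poor libraries, and they had the lowest mitochondrially encoded shares of the muscle-poor class, at 18.5 and 18.7%. The part of either in the lane 4 values was not tested.

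Lists for other tissues and cell types and for general gene programmes were also examined. Of 82 tested genes in 12 further lists (fasting response, red blood cell, lymphoid, macrophage, nerve and Schwann cell, tendon and connective tissue, skin, endothelium, clock, heat shock, immediate early and mitochondrially encoded), 0 were called by edgeR or DESeq2. Over all 15504 genes tested, 2.61% were called by edgeR and 1036 had an unadjusted p under 0.05. Of the 82, 3 had an unadjusted p under 0.05, all from the connective tissue list. These were Col1a1, Col1a2 and Thbs4, a matricellular protein of tendon and muscle, with log2 fold changes of 0.44 ± 0.18, 0.36 ± 0.16 and 1.504 ± 0.666 (SE; adjusted p = 0.50, 0.65 and 0.60). The tendon markers Tnmd and Scx were near 0, with at most 0.233 and 0.229 CPM. Summed lymphoid genes were at 9.40 to 29.7 and 9.31 to 36.0 CPM, and the epidermal keratin Krt14 was at 0 in all 32 libraries. Krt5, another epidermal keratin, was at 0 in 31 of them and had 1 read in an intermediate library.

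Smooth and heart muscle genes were examined as well. Of 10 smooth muscle genes, 3 were called by edgeR (against 2.61% of all genes tested) and 4 by DESeq2, and 7 had an unadjusted p under 0.05 (against 1036 of all 15504 genes). Their log2 fold changes ran from 0.06 to 1.56 with a median of 0.36. Synpo2, an actin-bundling protein that skeletal muscle also makes, had a log2 fold change of 1.56 ± 0.21, Lmod1 0.71 ± 0.13 and Acta2, the smooth muscle actin, 0.36 ± 0.09 (SE, edgeR adjusted p = 0.027 for Acta2). Acta2 lost its call without ZT12 replicate 4, ZT18 replicate 2, ZT21 replicate 4 or ZT6 replicate 2, with adjusted p of 0.054, 0.088, 0.082 and 0.11. Myh11, the smooth muscle heavy chain, was at 48.0 and 40.2 CPM and was not called. Of 11 heart genes, 4 had enough reads to be tested, and 1 of them was called, Actc1, the cardiac actin, at 3.22 ± 0.65 (SE), with a median of 1.22 CPM in muscle-rich libraries. Among the untested ones, Myh6, the alpha heavy chain of heart muscle, had 115 reads in muscle-rich and 1 in muscle-poor libraries. Its pooled ratio was 86.7 with a counting interval of 15.3 to 3454, and 54.7 without ZT15 replicate 1, which held 47 of the reads. Tnnt2, the cardiac troponin T, had 41 and 2 reads, a pooled ratio of 15.5 with an interval of 4.01 to 132, while Tnni3, the cardiac troponin I, had 46 and 40 reads, a pooled ratio of 0.867. Nppa and Nppb, the natriuretic peptides of the atrium and ventricle, were at 0 in all 32 libraries.

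Time of day was then tested as a 24 h cosine over all 32 libraries. By the same test 5598 genes (36.1%) were called, and 2663 (17.2%) with lane as a factor. Of the 401 genes higher in muscle-rich libraries, 19 were called (4.74%), and of the 103 muscle list genes, 2 were, Myod1 and Myh8. Both rested on few reads. The number of muscle list genes was 0 with the replicate block (adjusted p = 0.087 for Myod1 and 0.12 for Myh8) and 0 without any 1 of 9 libraries (ZT0 replicate 2, ZT3 replicates 1, 3 and 4, ZT6 replicates 1, 3 and 4, and ZT9 replicates 3 and 4). It was 15 without ZT3 replicate 2, and without ZT15 replicate 1 it was 1, Gpd1. With log2 Acta1 added as a term, 5539 genes (35.7%) were called, with 51 of the 401 (12.7%) and 6 muscle list genes, Tcap, Myod1, Myh2, Myh8, Lmod2 and Fbxo32. In the 12 muscle-poor libraries alone 1449 genes (9.35%) were called, 17 of the 401 and 4 muscle list genes among them. Clock genes were called throughout, with 13 of 13 in all libraries and 11 of 13 in the muscle-poor ones.

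Among these, Tcap, the titin cap protein of the Z-disc, had the lowest adjusted p of the 6 with Acta1 as a term. Over all 32 libraries without that term its adjusted p was 0.18. With log2 Acta1 as a term the adjusted p was 7.3e-09 (edgeR), with a log2 amplitude of 0.71 and a fitted peak at ZT 13.1. In the 16 muscle-rich libraries alone, a fit added after seeing this value, the adjusted p was 2.1e-05, the amplitude 0.69 and the peak at ZT 12.95. The 3 time points ZT9, ZT12 and ZT15 are also the whole of lane 3, so in the ratios by time the time window and the lane cannot be told apart. In fits added after seeing the data, with lane as a factor beside log2 Acta1, the adjusted p for Tcap was 0.0068 (amplitude 0.77, peak at ZT 12.6) over all 32 libraries and 0.066 (amplitude 0.70) in the 16 muscle-rich ones, where it was no longer called. With lane but without the Acta1 term it was 0.55. The ratio of Tcap to Acta1 in the 8 muscle-rich libraries of ZT9, ZT12 and ZT15 was 0.119 to 0.147. At ZT18 it was 0.127 and 0.0875, at ZT21 0.0694 and 0.0669, at ZT0 0.0429 and 0.0667, at ZT3 0.0454 and at ZT6 0.0826. The ratio of Ldb3, another Z-disc gene, ranged from 0.0701 to 0.102 over the same libraries. Ldb3 at 1.45-fold and Myoz1 at 1.43-fold were among the Z-disc genes that spread least in this ratio. Tcap spread by 3.43-fold, and others spread about as widely or more, such as Actn2 at 3.22-fold and Csrp3 at 4.76-fold. ZT18 replicate 3, at 0.127, was the library outside ZT9 to ZT15 that overlapped with them for Tcap. The genes Myh2, Lmod2, Myod1, Myh8 and Fbxo32 had adjusted p of 0.34, 0.13, 0.10, 0.20 and 0.23 in the muscle-rich libraries alone. With lane as a factor there too, Myod1 was at 0.020 and the other four were not called.

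**Figure D5:**
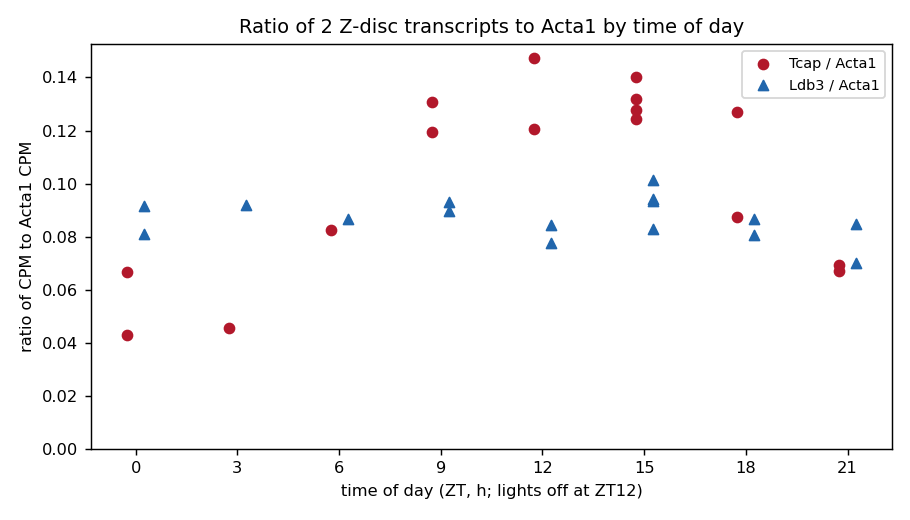
Ratio of Tcap and of Ldb3 to Acta1 (CPM over CPM) against ZT in the 16 muscle-rich libraries, 1 point a library. Tcap lies between 0.119 and 0.147 from ZT9 to ZT15 and between 0.0429 and 0.127 at the other times, which were sequenced in other lanes (ZT9 to ZT15 is lane 3), while Ldb3 lies between 0.0701 and 0.102 throughout.

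H19, an imprinted non-coding RNA that skeletal muscle keeps expressing after birth, followed the muscle genes and was chosen after its values were seen. It ranged from 4.08 to 79.9 CPM (median 18.8) in muscle-rich and from 0.237 to 1.43 CPM in muscle-poor libraries. Its ratio to Acta1 spread by 1.71-fold. Igf2, its imprinted neighbour, was at a median of 13.4 and 12.8 CPM and was not called.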

How the data were processed

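The authors prepared total RNA from snap-frozen iBAT, sequenced it as stranded paired-end reads, mapped it to mm10 with GSNAP 2017-09-11 and counted reads per Ensembl gene with HTSeq-count 0.6.1. The deposited values are raw counts per gene for 50686 genes. Whether counting used strand is not given in the sources used here, so antisense partners may share counts. Gene positions and lengths came from GENCODE M21 (GRCm38).

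Here CPM was the count over the column sum scaled to a column sum of 1000000. Genes were kept by filterByExpr with time point as the group, which held 99.9% of counts. Counts were scaled by TMM and fitted with edgeR 4.0.16 (R 4.3.3, limma 3.58.1) as cosine, sine and class. DESeq2 1.42.0 was an alternative. Permutation tests used 100000 resamples (Python 3.11.15, SciPy 1.17.1). The fits were tested on simulated counts. SE is the log2 fold change over the square root of F. No pair of libraries of a time point agreed within sampling noise (lowest mean chi-square 7.97 over 48 pairs). The labels name separate samples, and p-values measure the spread between them.

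The named genes were the members of 27 lists, plus, outside the 7 skeletal muscle lists, the 10 highest and 10 lowest log2 fold changes among called genes with a mean of at least 1 CPM in either class. The classes and lists were chosen with earlier results of these data known. A few genes are not reported here.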

Additional observations from a re-analysis of the deposited data

Results flagged for a closer look

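Within each time point of 4 libraries, 3 measures were searched for a library far from the other 3 (Dixon's ratio above its 95% critical value for 4 values). Over 24 sets of 4, chance would flag about 1 in 20. Of the summed filament, Z-disc and calcium genes, ZT3 replicate 2 stood apart at 12065 CPM against 175 to 300.0 CPM, and ZT6 replicate 2 at 2745 CPM against 190 to 223 CPM. Both were the only muscle-rich libraries of their time point. ZT15 replicate 1, which had the highest slow-fibre share, stood apart in its mitochondrially encoded share, at 26.7% against 22.8 to 23.3%, and in its total count, at 17466245 against 17136479 to 17167267.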

How the results depend on the processing

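The count of genes called between classes (405) was 361 to 420 when each library was left out and 294 to 543 in the other settings, except lane 3 alone, which gave 0 in all, 0 lower and 0 in the muscle lists (8 against 3 libraries). The muscle list count (97) was 94 to 98 and the brown fat, adipocyte and lipogenesis count was 0 (0 to 0) with each library left out, and the latter was 10 in lane 4 alone. The lower count (4) was 2 to 8 with each library left out, 2 in lane 2 alone, 166 in lane 4 alone, 7 with lane as a factor, 12 with log2 Acta1 as a continuous term, 0 against a 1.5-fold threshold and 9 with time point as a factor. The 24 h cosine count (5598) was 5099 to 5985 with each library left out, 2663 with lane as a factor, 1449 in the muscle-poor libraries alone and, as settings chosen after seeing the data, 1233 in the muscle-rich libraries alone with log2 Acta1, 418 there with lane as well and 2687 over all libraries with lane and log2 Acta1. Its muscle list count (2) was 0 to 15 with each library left out, 6 with log2 Acta1 as a term, 4 in the muscle-poor libraries alone, 1 in the muscle-rich libraries alone with lane and log2 Acta1 and 0 with the replicate block. The difference in total count (-92957) was -147299 to -21192 and that in mitochondrially encoded share (-0.203 percentage points) -0.656 to 0.231 with each library left out, and neither passed the permutation test. The replicate numbers did not pair the samples: deviations of same-numbered libraries correlated at -0.028 on average over 112 pairs, and with the replicate block 384 genes were called.

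Classes rest on a measured transcript and lanes hold whole time points, so lane and time cannot be told apart in full. Genes with few reads, such as Myh8, Myod1 and Pax7, have low precision. Each of the 10 genes named by rule at the low end lost its call in at least 1 alternative. So did every other called gene, because lane 3 alone called 0, so nothing is read from this.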

Other observations

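The Asb and Klhl families, which encode substrate adaptors of cullin ubiquitin ligases, were looked at after their members appeared among the called genes, so nothing is read from their counts beside the 2.59% of all genes tested that were higher. Of 16 Asb genes tested, 9 were higher in muscle-rich libraries. Asb14, Asb15, Asb11 and Asb18 had log2 fold changes of 7.54 (8.27 without ZT21 replicate 4), 6.79 (7.77 without ZT18 replicate 2), 6.65 and 6.32, while the 7 not called ran from -0.12 for Asb13 to 0.66 for Asb4. Of 32 Klhl genes tested, 8 were higher, among them Klhl31 at 8.28, Klhl40 at 7.16 (7.96 without ZT12 replicate 4) and Klhl41 at 6.97.

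Other genes of creatine metabolism, also chosen after values were seen, were set beside Ckmt2 and Ckm, whose log2 fold changes were 8.58 and 8.43. Gatm and Gamt, which make creatine, were at medians of 3.43 and 4.94 CPM in muscle-rich and 3.20 and 4.83 CPM in muscle-poor libraries. Slc6a8, the creatine transporter, was at 41.7 and 40.9 CPM, and Alpl, a phosphatase, at 18.5 and 18.8 CPM. Ckmt1, the other mitochondrial creatine kinase, was at most 0.123 CPM in any muscle-rich and 0.118 CPM in any muscle-poor library. None of the 4 tested was called by edgeR.

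Fndc5, the precursor of the myokine irisin, was at a median of 8.76 CPM in muscle-rich and 4.12 CPM in muscle-poor libraries, with overlapping ranges and a log2 fold change of 0.56 ± 0.31 (SE, edgeR adjusted p = 0.89). Mstn, the muscle growth inhibitor myostatin, had 275 reads in muscle-rich and 2 in muscle-poor libraries.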
